A study of Drosophila melanogaster with 76 samples.

Results

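Embryos of Drosophila melanogaster labelled Mutant had RNA polymerase II (Pol II) at 748 regions of chromosome arms without a wild-type embryo Pol II peak. The sample titles read Mutant IntS11 mislocalized, and those of the matching wild type read WT IntS11 mislocalized. The regions are the merged Pol II peaks present in both mutant lists at 1–1.5 h. They overlap no peak of the 4 wild-type embryo Pol II lists, 2 at 1–1.5 h and 2 at 2.5–3 h. Their midpoints lie on 2L below 22 Mb, on 3L below 23 Mb, on 3R above 5 Mb or on X below 22 Mb (build dm6). The 748 regions are 7.89% of the 9486 merged Pol II regions in these windows and 15% of the 4987 mutant-only regions of all chromosomes. Of the rest, 2410 lay on the same arms nearer the centromeres, 1370 on 2R, 432 on Y and 27 on 4. Within the windows, 1364 regions were in both early mutant lists, of which 748 (54.8%) met no wild-type peak and 616 (45.2%) met one. Mutant replicate 1 alone would give 1157 such regions, and peaks of at least 500 bp in both lists 462. These counts are what the rule selected, so the presence of early mutant Pol II and the absence of wild-type Pol II at these regions are no results, and the lengths of the early Pol II peaks and the distances to wild-type Pol II are given as description.

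The study mapped chromatin proteins by ChIP-seq in whole embryos and in larvae, with the immunoprecipitations run in duplicate. Peak lists of 40 of its 76 samples were used, in 20 groups of 2. Mutant embryos at 1–1.5 h and at 2.5–3 h had lists for Pol II, for Pol II phosphorylated on serine 5 (pSer5), for Zelda and for GAF. Wild-type embryos of the same stages had those lists and lists for IntS11. Zygotic-mutant larvae and wild-type larvae, labelled 48 AEL, had Pol II lists. The words IntS11 mislocalized stand in the titles of the wild-type and mutant embryo samples alike, except those for IntS11, and the allele of the mutants is not given in the labels. The labels do not say that the 2 duplicates of a group were separate collections, so the spread between them may be technical. The lists held between 1276 and 12202 peaks as start and end positions without heights or reads, so depth was unknown and a missing peak does not show that a protein was absent.

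Integrator is a complex that cuts nascent RNA to end short, unproductive Pol II transcripts and to form small nuclear RNAs, and IntS11 is the subunit that cuts. Serine 5 of the Pol II tail is phosphorylated when the enzyme leaves the promoter. Zelda and GAF bind their own DNA motifs and open chromatin when the embryonic genome is first switched on, and in normal embryos Pol II at this time is found mainly at promoters.

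The mutant-only regions were also occupied in the mutant lists of the other antibodies. A peak counted on a region when it shared at least 1 bp with it. At 1–1.5 h, pSer5 peaks covered 545 and 542 of the 748 regions in the mutant lists, against 5 and 10 in the wild-type lists. Zelda peaks covered 325 and 278 in the mutant lists, against 17 and 10 in the wild-type lists. GAF peaks covered 618 and 526 in the mutant lists, against 26 and 24 in the wild-type lists. For each of these antibodies the mutant and wild-type counts did not overlap. At the 8738 other Pol II regions in the windows they did not overlap either, in the reverse order. There pSer5 was at 9.21% and 10.2% in mutant lists, against 64.2% and 73.2% in wild-type lists. Zelda was at 6.58% and 5.93%, against 62.2% and 58.5%, and GAF at 11.2% and 7.51%, against 39.0% and 34.1%. Both wild-type lists had pSer5 at 5 of the 748 regions (0.668%), against 61.8% of the 8738 other Pol II regions in the windows. They had Zelda at 10 (1.34%, against 55.1%) and GAF at 16 (2.14%, against 31.9%). The rule left out wild-type Pol II peaks, while most of the other regions were defined by them. These wild-type shares are therefore not independent of the rule.

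Counting a region only when both lists of a group had a peak, pSer5 of the mutant at 1–1.5 h marked 509 regions (68.0%), against 6.94% of the other Pol II regions. With both mutant lists and neither wild-type list, pSer5 marked 505 (67.5%), against 1.58% of the other regions. GAF marked 518 regions (69.3%), against 7.1% of the others, and was mutant-only by the same criterion at 492 (65.8%), against 2.72%. Zelda marked 230 regions (30.7%), against 4.63%, and was mutant-only at 229 (30.6%), against 0.412%. Most of the other regions were defined by wild-type Pol II peaks, which lowers their share with mutant peaks by construction. A closer set is the 616 mutant regions that met a wild-type Pol II peak. Among these, both mutant lists had pSer5 at 40.4%, GAF at 18.3% and Zelda at 10.9%. When a peak had to cover at least 50% of the region, the Zelda count fell to 101 (13.5%), while pSer5 covered 415 and GAF 380.

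The 2410 mutant-only regions nearer the centromeres of the same arms, chosen by the same rule, shared some of these values. Both early mutant lists had pSer5 at 68.0% of the 748 regions, against 79.9% of those nearer the centromeres, and both late mutant lists had Pol II at 50.3%, against 41.2%. No other wild-type embryo list had a peak at 71.8% of the 748, against 87.5%. Early mutant GAF stood further apart, at 69.3% of the 748, against 22%, and early Zelda was at 30.7%, against 16%. These differences were not tested.

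The 3 antibodies met at the same places. At 205 regions (27.4%) both early mutant lists of pSer5, of Zelda and of GAF had a peak, against 0.584% of the other regions and 5.19% of the regions that met a wild-type peak. No early mutant list of the 3 antibodies had a peak at 39 regions (5.21%), against 74.1% of the other regions. GAF without pSer5 was found at 90 regions (12%, against 5.29%) and pSer5 without GAF at 74 (9.89%, against 5.39%).

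**Figure D1:**
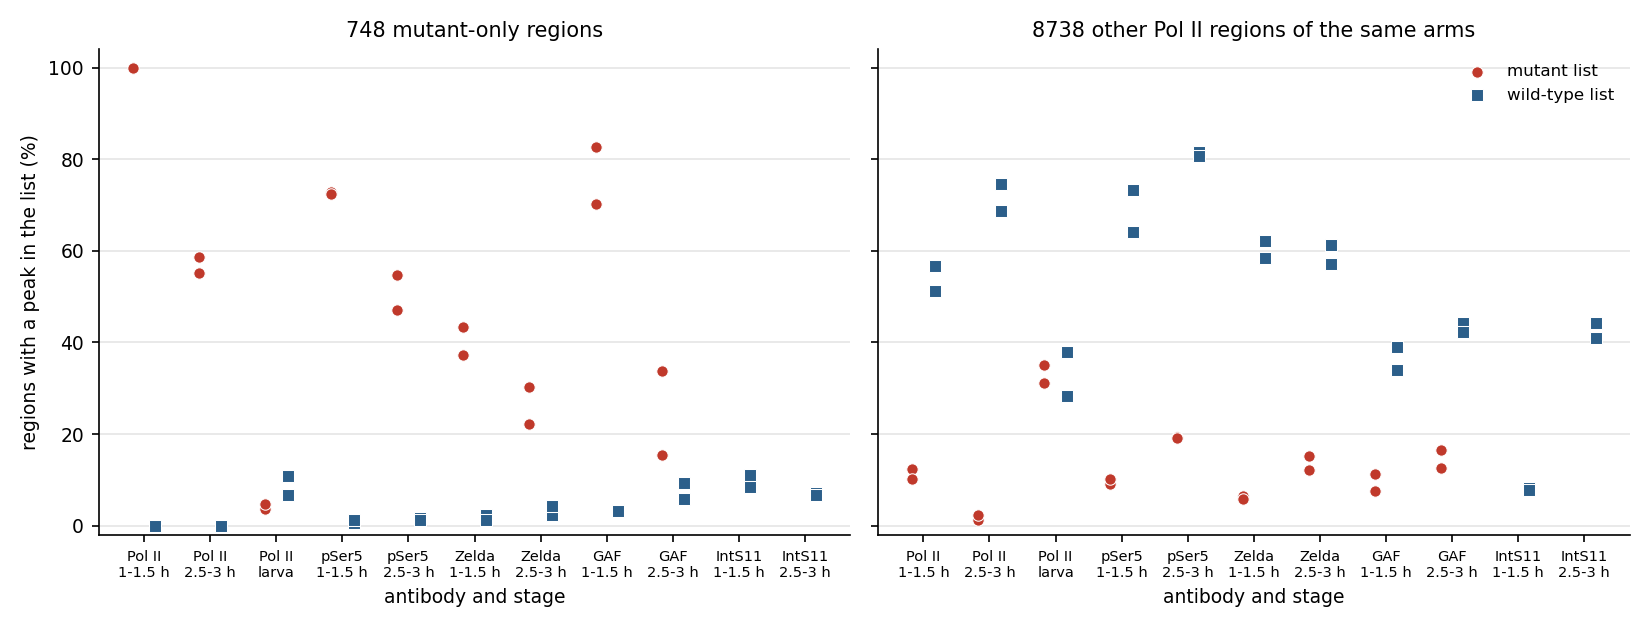
Share of regions with a peak in each list (percent, vertical axis) by antibody and stage, for the 748 mutant-only regions (left) and the 8738 other Pol II regions of the windows (right). Each point is 1 list, with mutant lists left of wild-type lists. At the mutant-only regions the mutant pSer5 lists of 1–1.5 h reach 72.9% and 72.5%, while the wild-type ones stay at 0.668% and 1.34%. The Pol II points of 1–1.5 h and the wild-type Pol II points of 2.5–3 h are fixed by the rule.

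Pol II was still called at many of these places an hour or more later. Mutant lists at 2.5–3 h had a Pol II peak at 413 and 439 regions (55.2% and 58.7%), and the 2 wild-type lists had none by the rule. Both late mutant lists had one at 376 regions (50.3%), against 1.04% of the other regions and 9.25% of those that met a wild-type peak. Neither had one at 272 regions (36.4%), against 97.4% of the other regions. Required to cover at least 50% of the region, late Pol II remained at 225 regions (30.1%). Of all Pol II peaks that the late mutant lists had in the windows, 58.9% in replicate 1 and 34.7% in replicate 2 lay on the 748 regions, a spread that goes with 967 and 1776 peaks in these lists.

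The other antibodies were less frequent at 2.5–3 h than at 1–1.5 h. Late pSer5 covered 409 and 353 regions in the mutant lists, against 12 and 10 in the wild-type lists. Both mutant lists had it at 321 regions (42.9%, against 15.5% of the other regions), and it was mutant-only at 309 (41.3%, against 1.24%). Late Zelda covered 226 and 166 regions in the mutant lists, against 17 and 32 in the wild-type lists. Both mutant lists had it at 132 (17.6%, against 10.7%), and it was mutant-only at 123 (16.4%, against 0.492%). Late GAF covered 115 and 252 regions in the mutant lists, against 70 and 43 in the wild-type lists. The mutant GAF replicates differed by more than the nearer mutant and wild-type lists did, and both had a peak at 103 regions (13.8%, against 12.5% of the other regions), of which 68 were mutant-only (9.09% of the 748, against 0.217%). Both late wild-type lists had pSer5 at 8 regions (1.07%, against 78.0% of the other regions), Zelda at 7 (0.936%, against 53.0%) and GAF at 33 (4.41%, against 37.6%). As at 1–1.5 h, these wild-type shares are not independent of the rule.

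At this stage the regions that met a wild-type peak had the larger shares of these 3 antibodies. Both late mutant lists had pSer5 at 74.7% of them, Zelda at 34.6% and GAF at 33.6%, whereas at 1–1.5 h the shares of these 3 antibodies were larger at the mutant-only regions. The lists are of unequal length between stages, and whether the stages differ was not tested. With at least 50% of the region covered, late pSer5 remained at 194 mutant-only regions, late Zelda at 72 and late GAF at 57.

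The regions formed a graded series by how many mutant lists shared them. Of the 14 mutant embryo lists outside the rule, none had a peak at 16 regions (2.14%) and all had one at 46 (6.15%). Between these ends, 242 regions were in 0 to 4 lists, 274 in 5 to 9 and 232 in 10 to 14. Median lengths in the 3 classes were 639.5, 846 and 1630.5 bp. Among the other Pol II regions, 53.7% were in none of these lists and 0.263% in all.

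**Figure D2:**
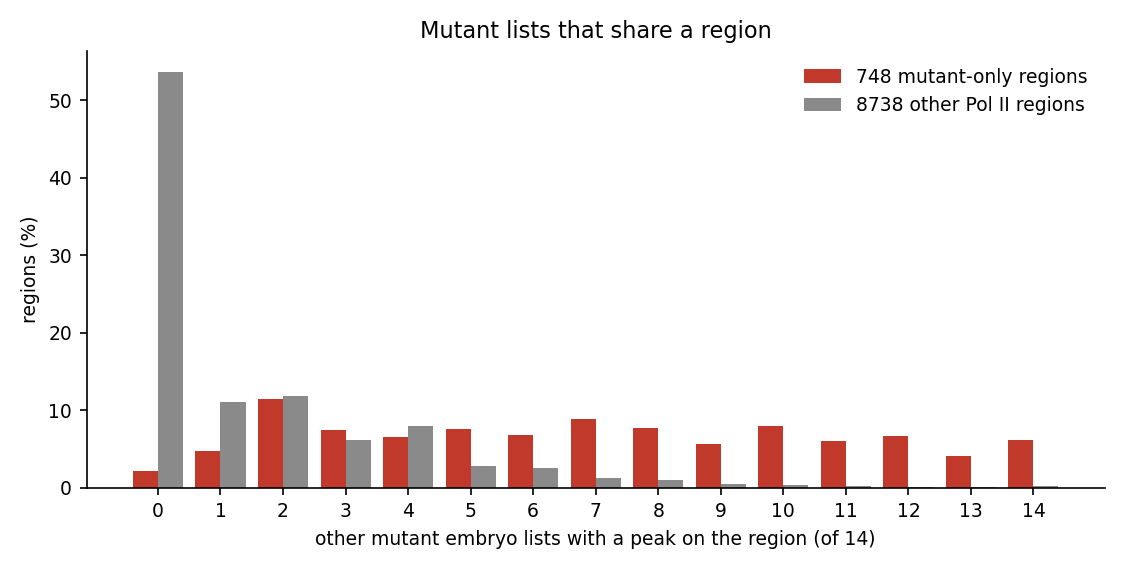
Percent of regions (vertical axis) by the number of the 14 other mutant embryo lists that had a peak on them (horizontal axis). Red bars are the 748 mutant-only regions and grey bars the 8738 other Pol II regions. The mutant-only regions are spread over the whole range, with 2.14% in 0 lists and 6.15% in 14, while 53.7% of the others are in 0 lists.

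The regions were 253 to 6921 bp long, with a median of 844 bp, and 147 (19.7%) reached 2000 bp. Length was itself part of the rule's lists and is given as a description. The 47 regions of at least 4000 bp had early pSer5 and early GAF in both mutant lists at 47 of 47, late Pol II at 45 and early Zelda at 41. Among the other Pol II regions of that length, early pSer5 of the mutant was at 36.1%, GAF at 17.2%, late Pol II at 6.39% and Zelda at 14.7%. In regions under 500 bp, the mutant-only ones had early pSer5 at 50.3%, GAF at 44.8%, late Pol II at 37.1% and Zelda at 11.9%, against 3.99%, 8.07%, 0.853% and 1.98% of other regions of that length.

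Where 1 peak of another list lay over a mutant-only region that also had 1 peak in early Pol II replicate 1, its edges were close to those of that peak. Early pSer5 edges differed by medians of 50 to 59 bp over the 2 lists, against 38 and 47 bp between the 2 early Pol II lists. Late Pol II edges differed by 63 to 73.5 bp, early GAF edges by 73 to 95 bp and early Zelda edges by 99 to 133 bp. Both edges fell within 100 bp of the Pol II edges in 47.7% and 42.2% of such regions for early pSer5, and in 26.9% and 26.5% for early Zelda.

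The region with the longest early mutant Pol II peaks on average lay on 3L outside genes and was in all 14 other mutant lists. At 3L:5459471-5466314, 13476 bp from the nearest protein-coding gene, CG4835, the Pol II peaks were 6844 and 6793 bp long in early mutant lists and 6938 and 6939 bp in late ones. The pSer5 peaks there measured 6920 and 6882 bp early and 4831 and 4815 bp late in the mutant lists. Zelda peaks were 3729 and 3769 bp long early and 2156 and 579 bp late, and GAF peaks 4584 and 3836 bp early and 286 and 431 bp late. No wild-type list of any antibody had a peak on it, so the genotypes did not overlap in pSer5, Zelda or GAF, and the nearest wild-type Pol II peak was 32345 bp away.

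A pair of regions inside sls, which encodes a titin-like protein of muscle, had peaks of every antibody in the mutant and of IntS11 in wild type. At 3L:2067647-2069508 the mutant Pol II peaks were 1842 and 1836 bp early and 2449 and 1948 bp late. The mutant pSer5 peaks were 2085 and 2064 bp early and 1915 and 1922 bp late, the Zelda peaks 1912 and 1897 bp early and 1868 and 1864 bp late, and the GAF peaks 1900 and 1888 bp early and 1776 and 1839 bp late. IntS11 peaks of wild-type embryos were also there, at 1861 and 1862 bp early and 1540 and 1583 bp late. No wild-type list of Pol II, pSer5, Zelda or GAF had a peak on it. The neighbouring region at 3L:2064073-2066819 had the same lists, with peak lengths that differed more. Mutant Pol II peaks there were 2684 and 2747 bp early and mutant pSer5 peaks 3500 and 3578 bp early, against wild-type IntS11 peaks of 2834 and 2670 bp early and 1908 and 1589 bp late. The other 3 regions in sls were in 1, 2 and 7 of the 14 other mutant lists.

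Other long regions had shorter peaks at the later stage. Inside CadN, the gene of the neural adhesion protein N-cadherin, the region 2L:17687733-17692133 had mutant Pol II peaks of 4376 and 4400 bp early and of 1272 and 1582 bp late. Its mutant GAF peaks were 4387 and 3472 bp early, and 543 bp in 1 late list and absent in the other. The longest region of all, 2L:16512098-16519018 in CG5953, had mutant Pol II peaks of 5635 and 6921 bp early and of 3886 and 1758 bp late, and mutant GAF peaks of 5442 and 3454 bp early and none late. The region 3R:5338561-5343301 in mtd had Pol II peaks of like length at both stages, with 4649 and 4741 bp early and 4763 and 4831 bp late in the mutant. None of these 3 regions had a wild-type peak of Pol II, pSer5, Zelda or GAF. Early wild-type IntS11 peaks of 1212 and 534 bp lay on the one in CG5953 and of 518 and 627 bp on the one in mtd.

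**Figure D3:**
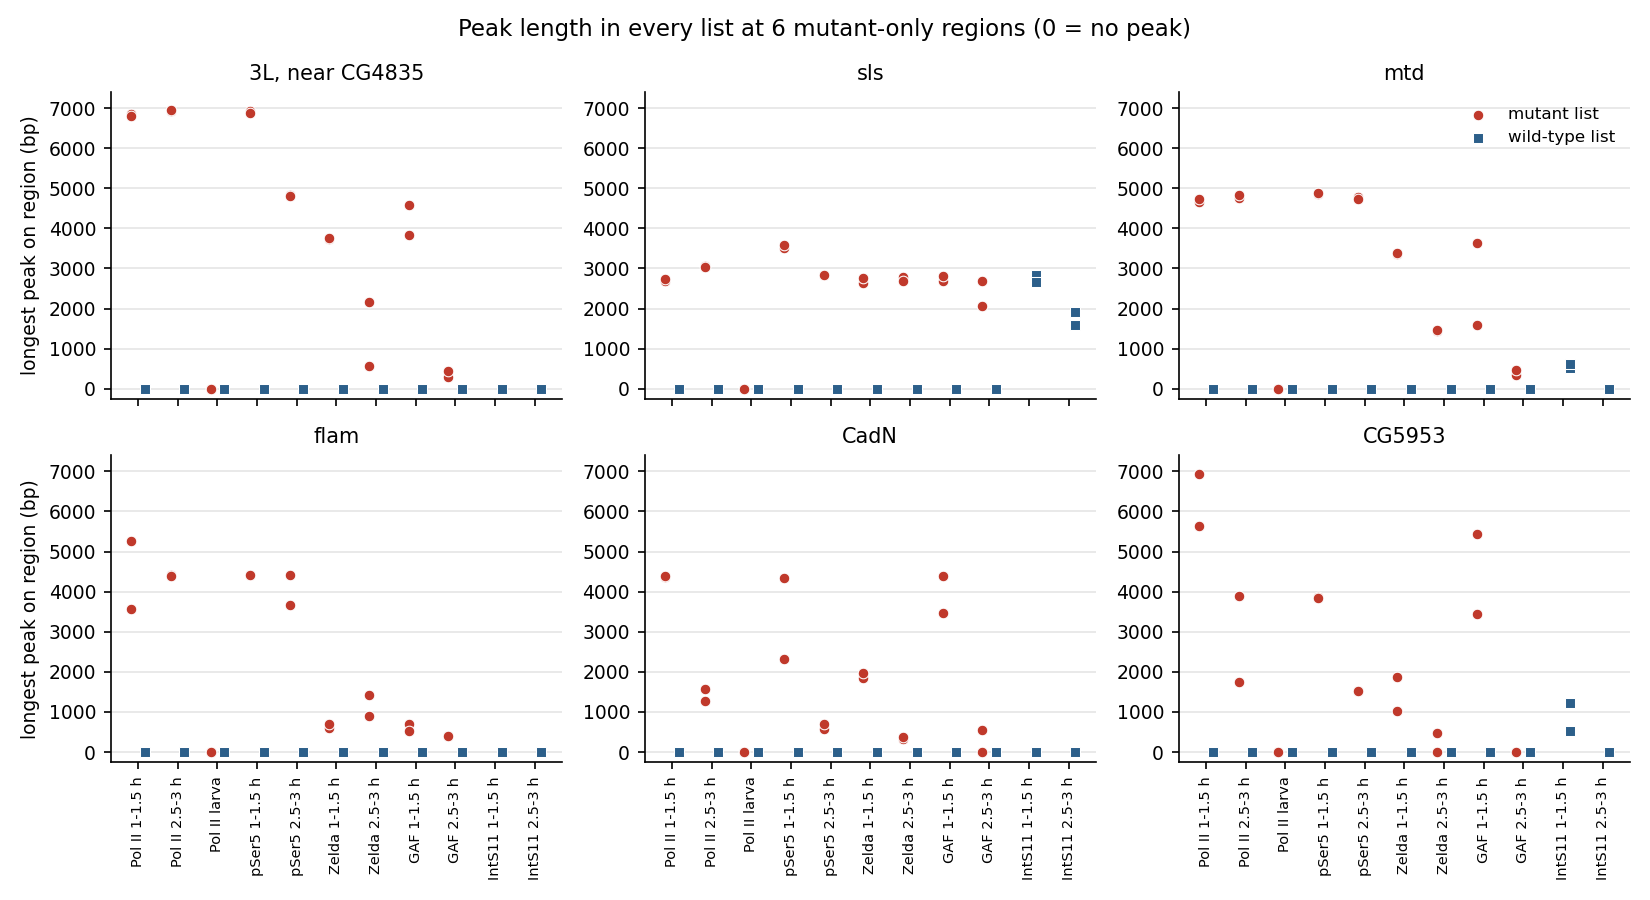
Length of the longest peak on 6 mutant-only regions (bp, vertical axis) in every list, by antibody and stage. Each point is 1 list, with mutant lists left of wild-type lists and 0 where the list has no peak. The region in sls has peaks of 2066 to 3578 bp in all mutant embryo lists and of 1589 to 2834 bp in the wild-type IntS11 lists, while the one in CadN falls to 1582 bp or less in late mutant Pol II lists.

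Wild-type embryos had few peaks of any antibody at these places. Of the 16 wild-type embryo lists of pSer5, Zelda, GAF and IntS11, none had a peak at 537 regions (71.8%). This held for 6.67% of the other Pol II regions and 2.76% of the mutant regions that met a wild-type Pol II peak. The 748 regions were chosen for lacking wild-type Pol II, and those set beside them mostly have it. Wild-type shares here are therefore not independent of the rule. Wild-type IntS11 lists at 1–1.5 h covered 82 and 64 of the 748 regions. Both did so at 53 (7.09%), against 5.46% of the other regions. Of the 616 mutant regions that met a wild-type peak, both lists covered 185. When the peaks had to cover at least 50% of the region, both lists remained at 28 of the 748. At 2.5–3 h IntS11 covered 53 and 51 regions, both at 37 (4.95%), against 36.8% of the others and 74.5% of the mutant regions that met a wild-type peak. There are no mutant IntS11 lists among those used here.

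The 53 regions with early wild-type IntS11 in both lists were in a median of 13 of the 14 other mutant lists, against 6 for the remaining regions. Their median length was 1046 bp, against 829 bp. Of the 53, 18 lay on X, which is 6.9% of the regions there, against 7.19% of those on the autosomal arms. Among the 53, 24 also had IntS11 in both late lists and 1 had pSer5 in both early wild-type lists. They include the sls pair, CG44153, mtd, fne (a neuronal RNA-binding protein), para (the voltage-gated sodium channel) and Ten-a (a teneurin of synapse formation). An example chosen after its values were seen is X:9809148-9810295 in CARPB, where the 14 other mutant lists had peaks of 1078 to 1167 bp and the 4 wild-type IntS11 lists had peaks of 1126, 1126, 1127 and 1128 bp. Late wild-type GAF was there with 426 and 410 bp, and the nearest wild-type Pol II peak was 30165 bp away.

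Larval Pol II was called at few of the regions and more often in wild type. Zygotic-mutant larvae had a peak at 27 and 35 regions (3.61% and 4.68%), against 81 and 50 (10.8% and 6.68%) in wild-type larvae, and the counts did not overlap. At the other Pol II regions they did overlap, with 31.1% and 35.0% in the zygotic mutant, against 37.9% and 28.4% in wild type. The zygotic-mutant lists held 5987 and 6902 peaks and the wild-type lists 8196 and 5694. Both zygotic-mutant lists had a peak at 16 regions (2.14%, against 27.0% of the other regions) and both wild-type lists at 29 (3.88%, against 25.7%). Larval peaks over at least 50% of the region were at 10 in both zygotic-mutant lists and at 20 in both wild-type lists. Any larval list had one at 112 regions (15%, against 47.3%). With 2 lists against 2, an exact permutation test cannot give a p below 0.333, so none was run.

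Most of the regions lay away from the ends of genes. By the gene table of the Release 6 assembly, 62 regions (8.29%) came within 500 bp of a gene end, 377 (50.4%) lay inside genes and 309 (41.3%) lay outside. Of the 616 mutant regions that met a wild-type peak, 68.0% were at gene ends, 24.2% inside and 7.79% outside. Of the 4326 early wild-type regions, 77.9% were at gene ends, 18.7% inside and 3.37% outside. Leaving out regions that meet wild-type peaks removes gene ends by construction. The makeup of the windows is set beside the regions, but it includes bases under wild-type peaks, where no region could lie. A lower share at gene ends is thus not independent of the rule. Bases within 500 bp of a gene end made up 19.7% of the 94.1 Mb, bases inside genes 58.8% and bases outside 21.6%. By midpoint alone, a measure that does not grow with region length and was added after seeing the data, 27 regions (3.61%) were at gene ends and 327 (43.7%) outside. The table gives neither strand nor exons and no repeats, so gene starts, introns and repeated sequence were not examined.

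Regions outside protein-coding genes were often far from any. The distance to the nearest one had a median of 8728.5 bp over 352 regions, and 164 of them were more than 10000 bp away. The nearest wild-type Pol II peak was at a median of 10323 bp. It was within 1000 bp at 63 regions, beyond 10000 bp at 384 and beyond 50000 bp at 102. The farthest, at 165830 bp, was 3R:6176234-6179748 near Osi1, which 12 of the 14 other mutant lists and all 4 wild-type Zelda lists had a peak on.

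The limits of the rule separate some close neighbours. The regions nearest a wild-type peak were 7 bp away at X:21841304-21842798, 12 bp away at MFS3, 58 bp away beside IntS11, 82 bp away in Eip63E and 96 bp away in Delta, which encodes a ligand of Notch. Just outside the rule were mutant regions that overlapped a wild-type peak by 6 bp at Osi22 and wntD, by 16 bp at GstD5, by 33 bp at hoe1, by 52 bp at CG16758 and by 91 bp at Hipk. Near the limits of the windows, the last region inside lay 2.51 kb from that of X, and the first mutant-only region outside lay 1.72 kb beyond it. On 2L these distances were 12.1 and 119 kb, on 3L 181 and 45.7 kb and on 3R 2.71 and 111 kb.

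The X chromosome held the most regions for its length. It had 261 (11.9 per Mb), against 163 on 2L (7.41 per Mb), 158 on 3L (6.87 per Mb) and 166 on 3R (6.13 per Mb). Early wild-type regions were fewer on X, with 32.7 per Mb against 50.0 to 50.1 per Mb on the other arms. Of the mutant regions in both lists, 75.2% on X were mutant-only, against 43.6% on 2L, 56.4% on 3L and 45.7% on 3R. Both early mutant lists had pSer5 at 71.6% of the regions on X, against 66.1% of those on the autosomal arms, and GAF at 70.1%, against 68.8%. Late mutant Pol II was at 57.5% of those on X, against 46.4%, a difference that was not tested.

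The end of the X window made up much of that count. From 21 Mb on, X held 74 regions, 28.4% of those on X. Of these, 25 lay inside lncRNA:flam (X:21631891-21790731), the flamenco locus whose long transcripts are cut into piRNAs in the ovary, 42 after it and 7 before it. On the other arms the counts per 1 Mb ranged from 2 to 28 on 2L, from 2 to 13 on 3L and from 0 to 13 on 3R, with medians of 7, 6 and 6. The median on X was 8.

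In the flamenco locus the early mutant pSer5 lists had a peak at 22 and 21 of the 25 regions, the late mutant Pol II lists at 18 each and the early mutant GAF lists at 21 and 18. Early mutant Zelda was at 12 and 9. The wild-type pSer5, early Zelda, early GAF and IntS11 lists had none, and the late wild-type lists of Zelda and GAF each had 1 or 2. The region X:21711389-21716691 had mutant Pol II peaks of 5268 and 3565 bp early and of 4420 and 4401 bp late, with mutant pSer5 peaks of 4427 and 4408 bp early. Its Zelda and GAF peaks were shorter, at 600 and 711 bp for early Zelda and 698 and 518 bp for early GAF. The 42 regions that followed in 201.9 kb without a gene in the table were in a median of 9 other mutant lists, and late mutant Pol II was at 35 and 33 of them. Repeated sequence was not examined, so it is unknown whether reads in flamenco and in this stretch could be placed with certainty.

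**Figure D4:**
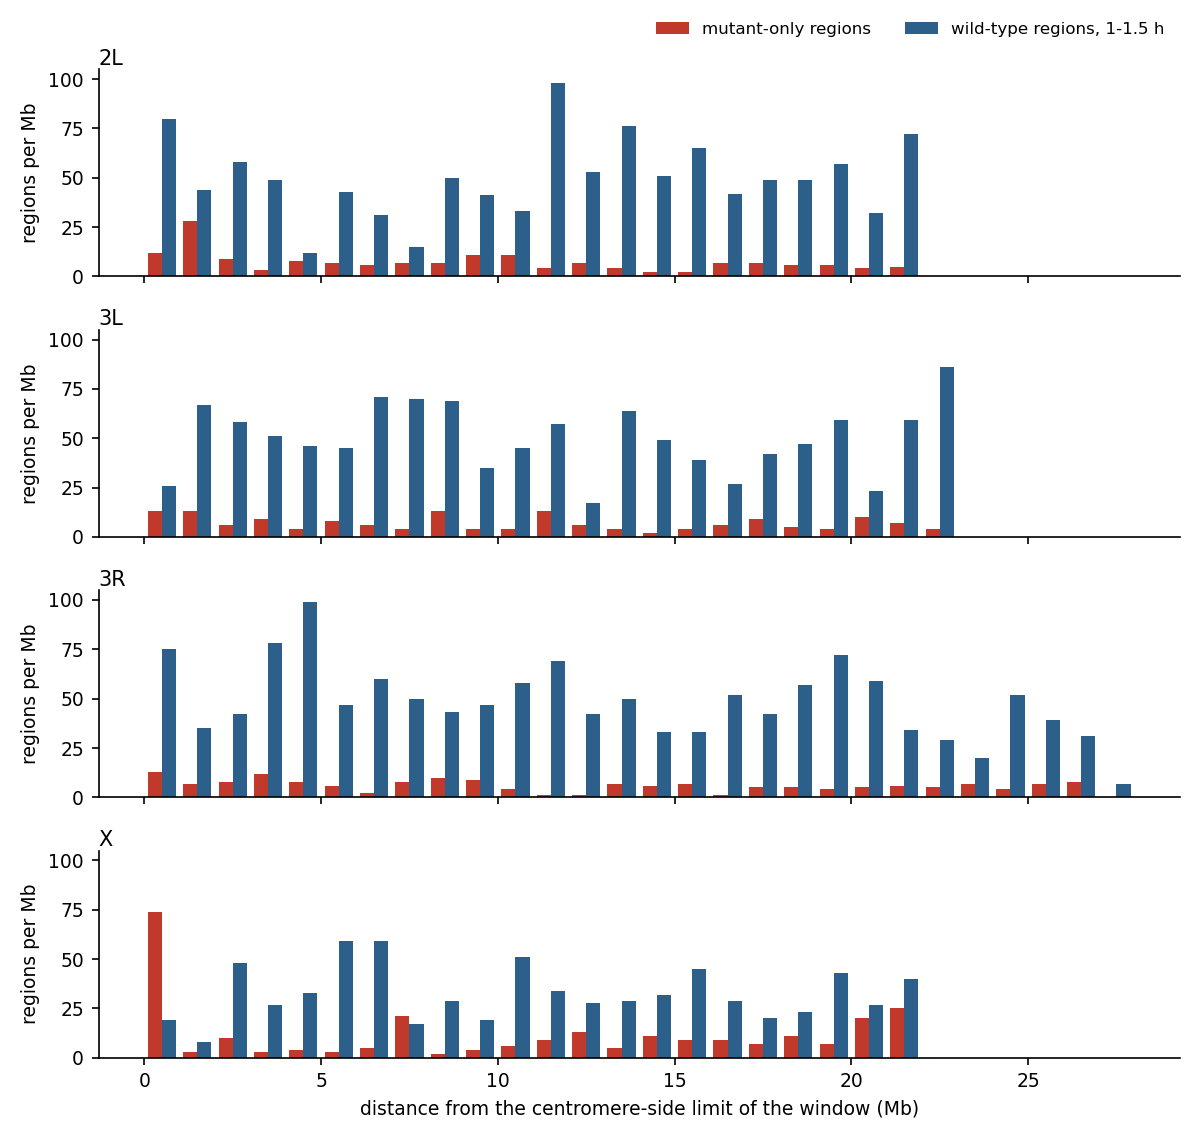
Regions per 1 Mb (vertical axis) by distance from the centromere-side limit of the window (Mb, horizontal axis) on 4 arms. Red bars are mutant-only regions and blue bars early wild-type Pol II regions. The first bar of X holds 74 mutant-only regions, and the next highest on any arm is the second of 2L with 28.

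Some regions came in runs. Joining regions up to 20000 bp apart gave 378 groups, of which 214 held a single region and 17 held 5 or more, with 171 regions (22.9%) in these. A run on 2L, at 2L:20153965-20218167, held 19 regions in 64.2 kb without a gene. Among them lay 13 other Pol II regions, and early wild-type Pol II regions in the span numbered 2. Both late mutant Pol II lists had peaks at 13 of the 19 mutant-only regions. Both early mutant lists had pSer5 at 13 and GAF at 7, but Zelda at 1. A run of 14 at X:38304-122262, near the end of the chromosome, had late mutant Pol II in both lists at 12 and early Zelda at 7. Its span also held 10 other Pol II regions, and early wild-type Pol II regions numbered 0. Wild-type larvae had Pol II at 6 of the 14 mutant-only regions in each list, and zygotic-mutant larvae at 4 and 3.

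Some regions lay at genes of families, and whether reads from similar copies could be placed with certainty was not examined. These families were picked out after their values were seen, apart from the heat shock genes. The Stellate genes of X are a tandem array that is held silent in the male germ line. A run of 6 regions there included 4 that touched 6 of the 12 genes. The span of this run also held 5 early wild-type Pol II regions. Early mutant GAF was at 6 of the 6 mutant-only regions in both lists. Early pSer5 was in both mutant lists at 4, early Zelda at 3 and late Pol II at 3. Pol II of wild-type larvae was at 5 and 4, and that of zygotic-mutant larvae is not given here. Of 17 mucin genes, 4 held 9 regions, beside 2.52% of all protein-coding genes, but 4 of the 9 lie in Mur2B, a gene of 145235 bp that spans br, and are the same regions as those of br. Among the mucins was Muc68Ca, where the late mutant Pol II peaks were 5169 and 5311 bp long. At the Hsp70 genes of 3R, the classic heat-induced chaperone genes, a run of 5 regions had 8 early wild-type Pol II regions in its span. Of the 5 mutant-only regions, 2 touched a gene. The one in Hsp70Bbb, 3R:12502763-12504762, had mutant Pol II peaks of 1970 and 1996 bp early. It was covered by 8 wild-type lists, among them early pSer5 with peaks of 2573 and 1095 bp and late IntS11 with 2721 and 2516 bp.

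Regions had 306 host genes, a host being a gene with a region within its span or 500 bp of it, which is 2.26% of 13559 genes. Of these, 271 were protein-coding (2.52% of 10755), and 439 regions (58.7%) had a host. Hosts were long genes, with a median of 36.8 kb for protein-coding hosts, against 2.10 kb for other protein-coding genes. A region was found in 42 of 8101 genes under 5 kb (0.518%), in 56 of 1877 from 5 to 20 kb (2.98%), in 72 of 545 from 20 to 50 kb (13.2%) and in 101 of 232 longer ones (43.5%). Longer genes offer more bases to be hit, so gene counts below are read beside gene length.

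Long host genes had Pol II at their own ends about as often as other long genes. Among genes of at least 50 kb, early wild-type lists had Pol II at an end of 47 of 101 hosts (46.5%), against 63 of 131 genes without a region (48.1%). The early mutant lists had it at an end of 10 of these hosts (9.9%), against 18 of the genes without a region (13.7%), and the late mutant lists at 0 of either. Over protein-coding genes of all lengths, the early mutant lists had Pol II at an end of 66 of 271 hosts (24.4%), against 600 of 10484 other genes (5.72%), a count that includes hosts whose region lies at the end itself.

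**Figure D5:**
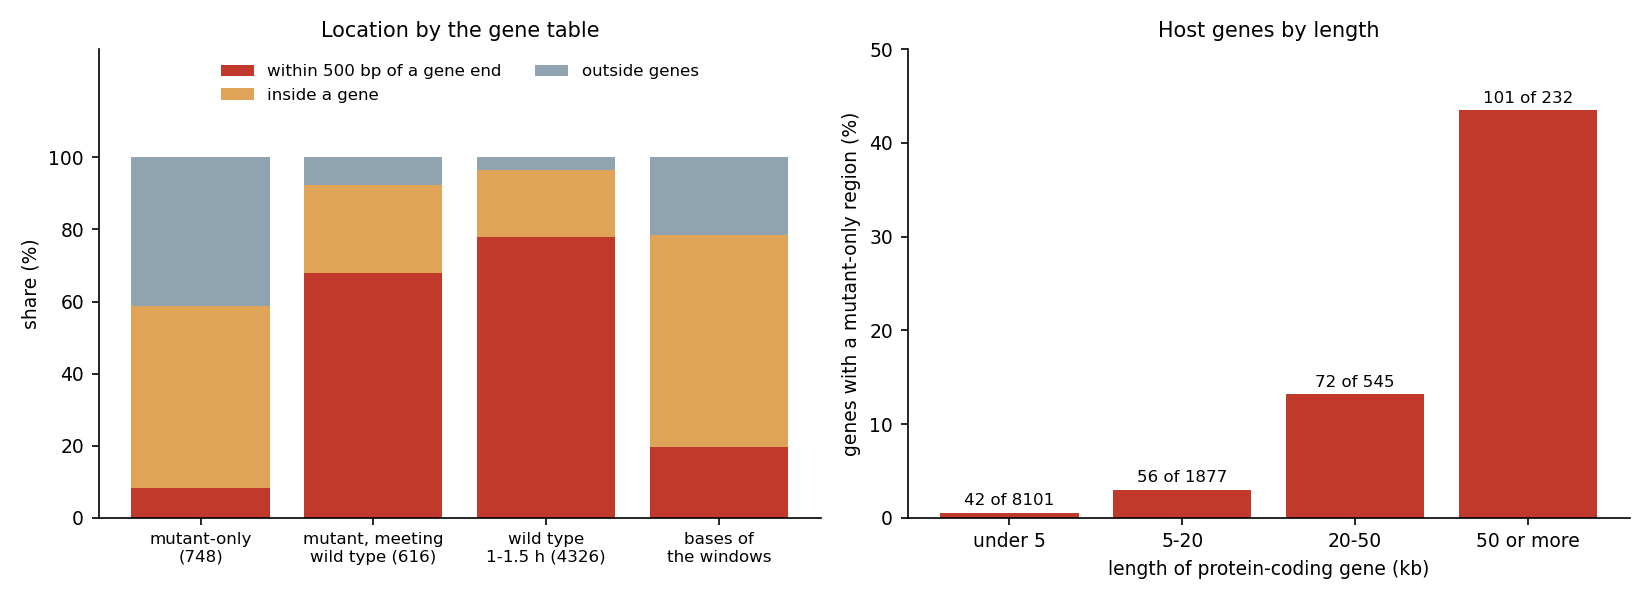
Left, share (percent) of mutant-only regions, of mutant regions that met a wild-type peak, of early wild-type regions and of the bases of the windows that lie within 500 bp of a gene end, inside a gene or outside. Right, percent of protein-coding genes with a mutant-only region by gene length (kb), with counts above the bars. Gene ends take 8.29% of mutant-only regions, against 77.9% of early wild-type regions, and hosts make up 43.5% of genes of at least 50 kb.

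The genes with the most regions after flamenco were jim, a zinc finger gene, and Lar, a receptor phosphatase of axon guidance that CG46244 overlaps, with 6 each. CG43291, CG12541, sls and dpr6 followed with 5 each, and 14 genes had 4, among them l(1)G0289 and CG8861, the shortest of these. They differed in the lists that shared them. In jim the 6 regions were in 3 to 9 of the 14 other mutant lists, in Lar in 2 to 12, in CG12541 in 5 to 14 and in dpr6 in 2 to 6. The 5 regions of CG43291 were in 0 to 5.

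Lists of neural wiring and excitability had the most hosts, and they hold long genes, so their shares stand beside 2.52% of all protein-coding genes, 13.2% of those from 20 to 50 kb and 43.5% of longer ones. Of 45 genes listed under neuronal adhesion and wiring, 12 were hosts (26.7%, median length of the list 40.7 kb), among them Lar, CadN, Con and the neuroligin gene Nlg4. Ptp61F and Ptpmeg2 are also among the 12, and whether they belong in such a list was not checked. Of 52 genes of ion channels and synapses, 12 were hosts (23.1%, median 28.7 kb), among them para, Sh (the Shaker potassium channel), dnc (a cyclic AMP phosphodiesterase) and rut (an adenylyl cyclase). Octbeta3R is among the 12 only through the 500 bp allowed beside a gene, by a region that lies inside Hsp70Bc. Of 46 dpr, DIP and beat genes, which encode paired recognition proteins of neurons, 8 were hosts (17.4%, median 33.2 kb). In that family, dpr8 held a region of 4387 bp in 13 other mutant lists, 159601 bp from a wild-type Pol II peak.

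Among the lists of developmental and heat shock genes, those with a host held 1 to 4 each, beside 2.52% of all protein-coding genes. Other developmental lists held none and are given below. Of these hosts, sls, Msp300, br, Hr4, fz and fz2 are longer than 50 kb, a class in which 43.5% of genes were hosts. Eip78C, pb and tok are 20 to 50 kb long (13.2%), and ph-p and Pc 5 to 20 kb (2.98%). Sgs1 and the 2 heat shock hosts are under 5 kb (0.518%). The muscle list had 2 of 18 (11.1%, sls and Msp300), the ecdysone list 4 of 32 (12.5%, br, Hr4, Sgs1 and Eip78C), the segment polarity list 2 of 9 (22.2%, the Wnt receptors fz and fz2) and the list of pioneer and chromatin factors 2 of 16 (12.5%, the Polycomb-group genes ph-p and Pc). The Hox list had 1 of 8 (12.5%, pb), the dorsoventral list 1 of 26 (3.85%, tok) and the heat shock list 2 of 23 (8.7%). Further lists had 1 host each: Ir93a (2.44% of its list), Obp73a (4.55%), Cpr73D (1.1%), Cyp12a4 (1.92%) and mir-252 (0.513%), beside 2.26% of all genes. Obp73a and Cpr73D are hosts of the same 2 regions.

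Of the 35 lists, 16 held a host and 19 held none. There was none at 67 ribosomal protein genes, 60 mitochondrial ribosomal protein genes, 35 proteasome genes, 115 histone genes or 31 spliceosomal snRNA genes. Nor was there any at the 12 gap genes, the 6 pair-rule genes, the 15 Notch target genes or the 14 genes of the earliest zygotic set, which pattern the embryo or are switched on at about this time. The lists of 10 maternal genes, 43 odorant receptor, 47 gustatory receptor, 25 Osiris, 30 UDP-glycosyltransferase, 15 gut protease, 18 glutathione transferase, 18 chorion and yolk, 39 accessory gland and 24 antimicrobial genes were also without a host. Most of these are short genes, with median lengths of 1.39 kb for ribosomal proteins and 1.44 kb for odorant receptors, and 0.518% of all genes under 5 kb were hosts.

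Among 8 Integrator genes, 1 was a host (12.5%, beside 2.52% of all protein-coding genes and 0.518% of those under 5 kb). This was IntS11, counted only through the 500 bp allowed beside a gene. The region, 3R:29747861-29748359, lies beyond the end of IntS11 (3R:29745337-29747513) and inside its neighbour ATPsyngamma, a subunit gene of the mitochondrial ATP synthase. Mutant Pol II peaks on it were 499 and 353 bp long early and 508 and 592 bp late. Mutant pSer5 peaks were 855 and 602 bp early and 818 and 722 bp late, and Zelda peaks 652 and 434 bp early and 431 and 708 bp late. No GAF list had a peak on it. Wild-type pSer5 covered it in 1 of 2 early lists with a peak of 2426 bp, and in the late lists with 3513 and 5213 bp, and late wild-type Pol II came within 58 bp.

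Inside IntS11 the mutant and wild-type Pol II peaks lay at different places. Late mutant Pol II peaks lay at 3R:29746498-29746723 and 3R:29746477-29747025, in the body of the gene. Late wild-type Pol II peaks lay at 3R:29744876-29745490 and 3R:29744776-29745577, over its lower-numbered end, and at 3R:29747408-29747757 and 3R:29747134-29747802, over the other. Early GAF covered most of the gene in both genotypes, with peaks of 1870 and 1943 bp in the mutant, against 1964 and 2316 bp in wild type. Late GAF had no peak there in the mutant, against 1581 and 1821 bp in wild type. These positions do not show the sequence or the level of IntS11 RNA in either genotype.

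A region at the related gene Cpsf73, which encodes the cleavage enzyme of mRNA 3′ ends and was singled out after its values were seen, had the reverse make-up. At 3R:18661357-18661715, where Cpsf73 and CstF64 meet, mutant Pol II peaks were 330 and 344 bp long early, and none of the 14 other mutant lists had a peak. Wild-type IntS11 was there in all 4 lists, with 690 and 669 bp early and 690 and 701 bp late, and so was late wild-type pSer5 with 1085 and 4184 bp.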

How the data were processed

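The authors deposited narrow peak lists with 3 columns, and the values used here are positions in base pairs on build dm6, with no height, fold or p. Tools listed, with neither order nor settings, in the submitters' processing notes are MACS2 2.2.7.1, Bowtie2 2.2.5, deepTools 3.5.1, Trimmomatic 0.39 and SAMtools 1.18. Depth per library was unknown, and the 36 other samples were not analysed here.

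Early mutant Pol II peaks were merged when they shared at least 1 bp and kept when both lists overlapped the merged region. Other lists were counted on a region at an overlap of at least 1 bp. The rule was checked on simulated lists and with bedtools 2.31.1, and counts were made with Python 3.11.15, numpy 2.4.6 and pandas 2.3.3. Genes came from a table of 17807 records of the Release 6 assembly. The regions share neighbouring sequence and are not replicates, so lists are compared by counts and no test was run over regions or genes.

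The regions and the 35 gene lists were chosen with earlier results of these data known. The patterns for 2 gene lists were corrected once the gene table was at hand. Named are the 15 longest regions, the 15 shared by the most other mutant lists, the 10 genes with the most regions, the 5 regions nearest to and the 5 farthest from wild-type Pol II, up to 3 genes of each list, and regions at Integrator, snRNA, histone or heat shock genes, of which the text gives a part. A planned search for promoter motifs was not run, since no sequence was used here.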

Additional observations from a re-analysis of the deposited data

Results flagged for a closer look

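Larval Pol II at the 748 regions was called less often in the mutant, the opposite order to the embryo antibodies outside the rule. Zygotic-mutant larvae had a Pol II peak at 27 regions in replicate 1 and 35 in replicate 2, against 81 in replicate 1 and 50 in replicate 2 of wild-type larvae. At the other Pol II regions the larval shares overlapped, with 31.1% and 35.0% in the zygotic mutant, against 37.9% and 28.4% in wild type. In embryos at 1–1.5 h, pSer5, another antibody, was at 545 and 542 regions in the mutant, against 5 and 10 in wild type. Embryo Pol II cannot be set against the larval counts, since the rule fixed its order. The difference between stages was not tested, and the larval mutants are zygotic.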

How the results depend on the processing

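No paired analysis was possible because the results are counts from no test. Of the recomputed values, 128 stayed within 1.5 times the reported one, or for the length within the spread between lists, and 24 moved. Without 1 mutant or wild-type replicate in turn, the regions numbered 766 to 1157, their median length was 551.5 to 842.5 bp, and those with Pol II in both wild-type larval lists numbered 31 to 54. The highest count of regions came without mutant replicate 2. With peaks of at least 50% of the region, the counts were 225 for late Pol II, 194 for late pSer5, 101 for early and 72 for late Zelda, 57 for late GAF, 28 for early IntS11 and 10 for zygotic-mutant larvae. With early mutant Pol II peaks of at least 500 bp, 462 regions remained, 158 of them on X, with a median of 1206.5 bp, and both larval lists covered 8 in the zygotic mutant, against 14 in wild type. The intersection of the early mutant peaks had a median of 554 bp. Without regions over 2000 bp, early Zelda was at 131 and early IntS11 at 34. Gene ends numbered 41 with 250 bp either side, 98 with 1000 bp and 27 by midpoint, and 80 genes had a region at an end. Leaving out long regions, midpoints and joining regions up to 1000 bp apart were alternatives chosen after seeing the data. The cause of each shift was not tested. Over these alternatives, early pSer5 in both mutant lists was at 53.2% to 83.5% of regions, early GAF at 50.8% to 78.8%, early Zelda at 13.5% to 43.5% and late Pol II at 30.1% to 63.9%. Peak heights and read depth were not at hand, so a missing peak may reflect depth.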
